A study of Mus musculus with 199 samples.

Results

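The 38 genes described here are markers of antigen presentation by MHC class II, of myeloid cells and of Kupffer cells, the resident macrophages of the liver, and they were taken by symbol from the 31581 genes of the deposited table. All 38 symbols were found, each with 1 row. Their counts were followed in mouse small cell lung cancer cells of the KP1 line, which lacks Rb1 and Trp53, captured by laser microdissection 10 cells at a time from 8 µm cryosections. KP1 cells were taken from cultured spheroids (28 libraries) and from liver colonies grown in immunocompromised nude mice (33 libraries) or in immunocompetent F1 mice (31 libraries). For each of these conditions there were also pool-and-split libraries, made from pooled material divided into portions of the same size: 20 from spheroids, 35 from nude livers and 24 from F1 livers. Spheroids of RPC, a pre-cancerous line lacking Rb1, Trp53 and Crebbp with 1 lost copy of p130, gave 24 further 10-cell libraries. Bulk RNA libraries, 1 each without replicates, came from spheroids of KP1 (Rb1-/-Trp53-/-) and of KP2, KP3 and KP5, which carry in addition Ptch1+/lacz, Axin2+/lacz and BAT-GAL, respectively. Every group thus shares the loss of Rb1 and Trp53. KP1 and RPC are each a single line, the ages of the mice and the parents of the F1 cross are not given in the labels, and neither is the number of animals, so the tests below compare captures, not mice.

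Macrophages and dendritic cells take up protein, cut it into peptides and show these on MHC class II, a dimer of an α chain and a β chain. H2-Aa encodes an α chain, and H2-Ab1 and H2-Eb1 encode the β chains of different dimers. The invariant chain, encoded by Cd74, escorts the dimer to the endosome, and the H2-DM dimer (H2-DMa, H2-DMb1) exchanges the remnant of the invariant chain for peptide. Transcription of all these genes depends on the coactivator CIITA, encoded by Ciita, which is recruited by RFX and NF-Y proteins bound to the X and Y boxes of their promoters. Kupffer cells line the liver sinusoids, clear particles and dying cells from the blood, make C1q, and are marked in mice by receptors such as Clec4f, Timd4, Vsig4 and Marco. Which cells the counts of these genes came from was not tested.

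The promoters of H2-Aa and H2-Eb1 are shown because every 10-cell library with counts of either gene was a liver library that also held Cd74, and because their promoters hold the letters of the shared X and Y boxes. Both are RefSeq sequences on GRCm38.p6 and give the 130 bases before the start of transcription, 5′ to 3′ on the strand of the gene, with capitals marking the letters of the X box (CTNGNAACT) and, nearer the start, of the Y box (TGATTGG).
H2-Aa, chr17:34287824-34287953, minus strand: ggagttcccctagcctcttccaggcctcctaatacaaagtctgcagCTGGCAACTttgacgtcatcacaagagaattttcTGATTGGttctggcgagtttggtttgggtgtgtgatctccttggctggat
H2-Eb1, chr17:34305737-34305866, plus strand: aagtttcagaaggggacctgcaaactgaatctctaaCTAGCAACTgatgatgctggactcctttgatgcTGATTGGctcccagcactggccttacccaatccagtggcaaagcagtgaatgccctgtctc
The X box letters began 84 bases before the start in H2-Aa and 94 in H2-Eb1, the Y box letters 50 and 61 bases before it, with 25 and 24 bases between the boxes. H2-DMb1 held the same pair 97 and 63 bases before its start, with 25 bases between. Of the 38 genes, 29 had a promoter entry, and 3 of the 4 class II genes among them held both sets of letters. Over all 32851 promoters, searched on both strands from 250 bases before to 50 after the start, the X box letters were in 4.1%, the Y box letters in 7.82% and both in 0.35%. The letters were chosen after these promoters had been read, and a match is not evidence of binding.

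The 10-cell libraries summed to 3775229 to 5308787 gene counts for KP1 spheroids, 718208 to 4239792 for nude livers, 1646395 to 5432858 for F1 livers and 3485529 to 7557773 for RPC. Pools had 3662447 to 5830589 in spheroids, 956772 to 4004888 in nude livers and 1977440 to 5410297 in F1 livers. The tumour label was met in the livers: Chga, a granule protein of neuroendocrine cells, had counts in 33 of 33 nude and 31 of 31 F1 10-cell libraries. Its level fell by 0.78 ± 0.24 on the log2 scale (SE) in nude and by 0.89 ± 0.26 in F1 livers against spheroids (edgeR's quasi-likelihood test, adjusted p = 0.00997 and 0.0157). Of 7 neuroendocrine genes tested, 5 fell and none rose in nude livers, where 16.3% of all genes fell, and 4 fell and 1 rose in F1 livers, where 4.91% fell and 7.73% rose. The part of this fall in the levels of the 38 genes was not tested. Levels below are CPM, each count relative to a library's sum over the genes without the spike-in transcripts, and are compared between libraries for 1 gene at a time, not between genes. A gene without counts in a group is given the value of 3 counts summed over that group as a floor, 0.0240 CPM in the 28 spheroid 10-cell libraries and 0.0321 CPM in the 20 spheroid pools. Such floors cover counting error only, since the reads carry no molecular identifiers.

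In KP1 spheroids most of the 38 genes were not detected at this depth, and in the livers most were detected in part of the libraries. No counts of 30 of them were found in any of the 48 KP1 spheroid libraries, and all 30 had counts in at least 1 of the 123 liver libraries. H2-DMa, Mrc1, Cybb and Ccr2 had counts in 1 to 23 spheroid libraries, and Fcgr2b, Csf1r, Cd68 and Itgam in at least 24. Of the 30 undetected genes, 25 had counts in nude liver 10-cell libraries and 24 in F1 liver 10-cell libraries, against 17.5% and 10.3% of the 13218 genes of the whole table that were equally undetected in KP1 spheroids. In the nude pools 28 of the 30 had counts (19.2% of the undetected genes) and in the F1 pools 18 (8.78%). Counts in at least 10 libraries were reached by 11 of the 30 in nude liver 10-cell libraries (0.984% of the undetected genes) and by 6 in F1 liver 10-cell libraries (0.537%), and in pools by 6 in nude (0.583%) and 1 in F1 livers (0.129%). The genes were listed as markers of liver and immune cells, so a share above that of all undetected genes describes the list. In such libraries fewer cells of a type and less RNA per cell cannot be told apart.

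**Figure D1:**
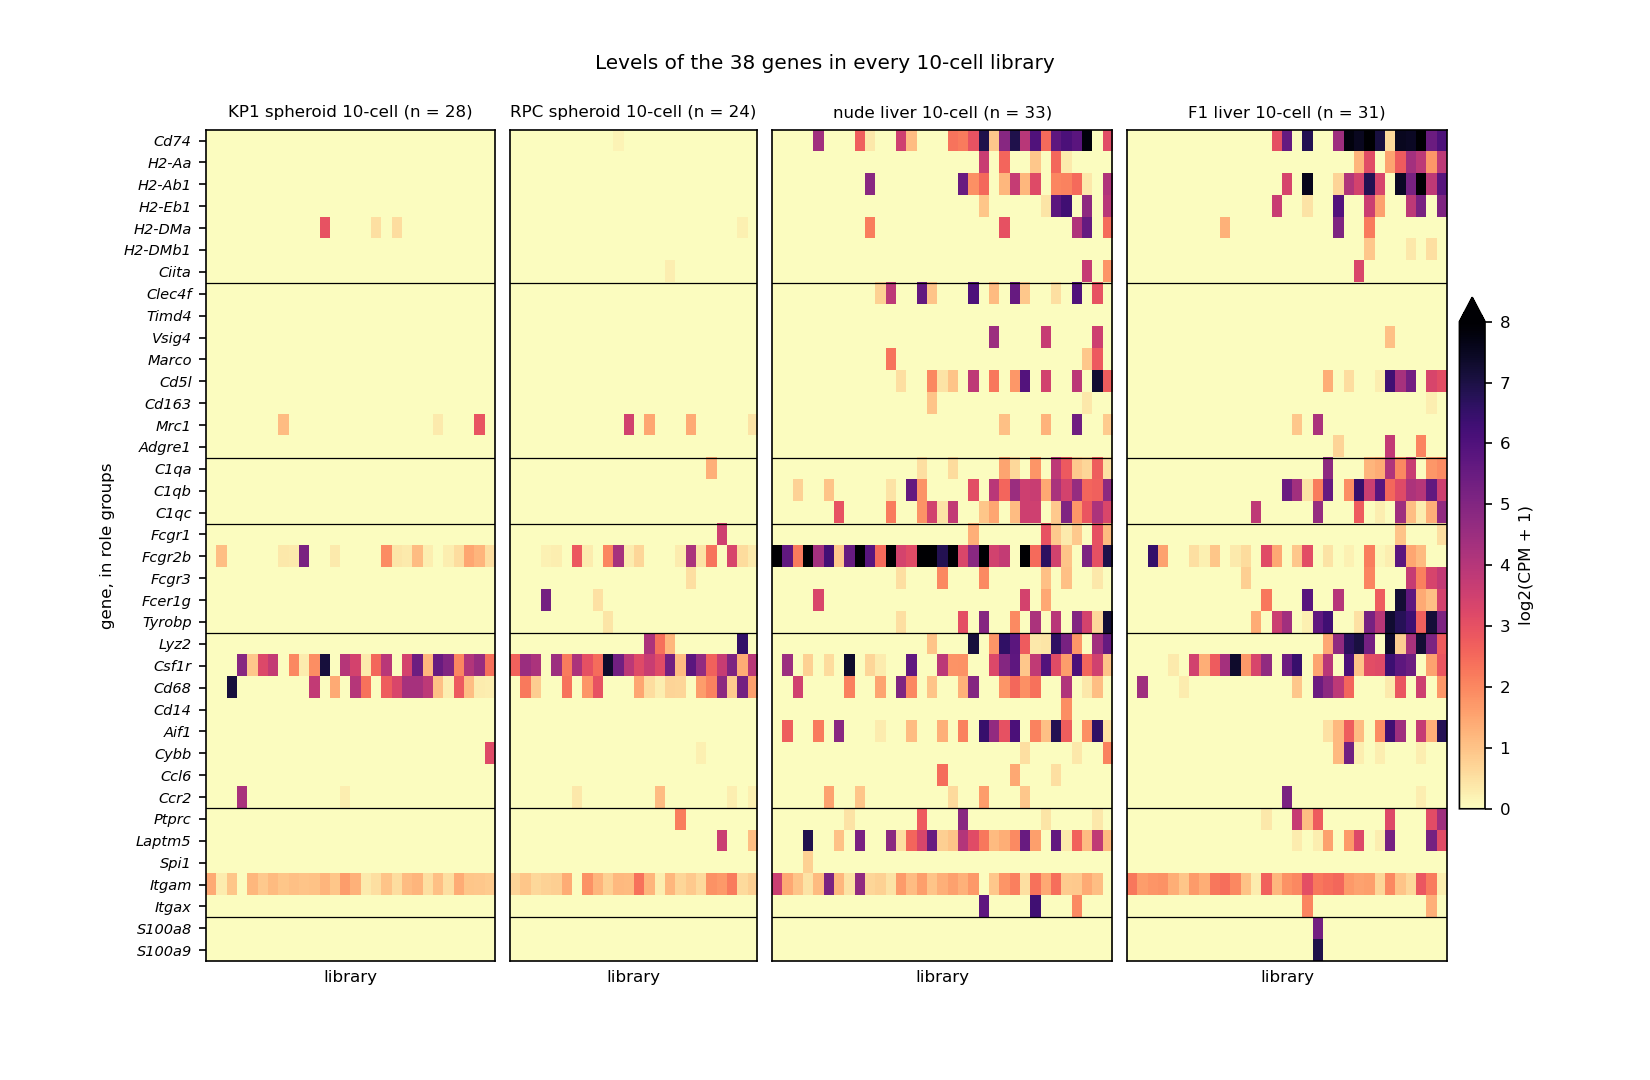
Level of each of the 38 genes (rows, in role groups) in each 10-cell library (columns, 28 KP1 spheroid, 24 RPC spheroid, 33 nude liver and 31 F1 liver), as log2(CPM + 1), with values of 8 and above in black. Within a panel, libraries are ordered by how many of the 38 genes had counts. The spheroid panels are empty for most rows, and in the liver panels the counts lie in part of the libraries.

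The number of the 38 genes with counts in 1 library followed the same division. KP1 spheroid 10-cell libraries held 3.18 ± 0.983 of them (SD, n = 28), with a range of 1 to 5. Nude liver libraries held 10.1 ± 4.97 (n = 33, range 2 to 18) and F1 liver libraries 8.35 ± 5.98 (n = 31, range 1 to 19). The pools were narrower, with 7.86 ± 3.6 in nude livers (n = 35) and 5.79 ± 2.4 in F1 livers (n = 24), against 3.15 ± 0.875 in spheroids (n = 20). At least 1 of the 30 genes undetected in spheroids had counts in 32 of 33 nude liver 10-cell libraries, but in only 20 of 31 F1 liver 10-cell libraries, where the remaining libraries held none and the richest held 17. In the F1 pools 23 of 24 held at least 1, and in the nude pools 35 of 35.

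**Figure D2:**
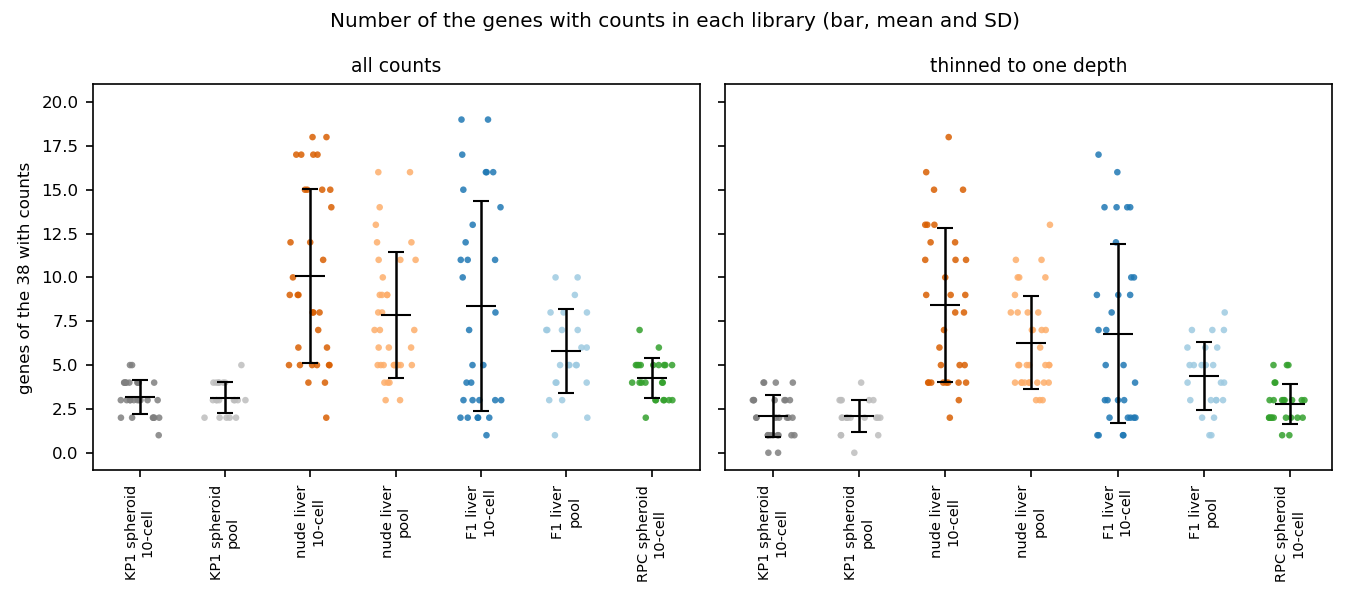
Number of the 38 genes with counts in each library (point), with the mean and SD of the group (bar), from all counts (left) and from counts thinned to 718149 per library (right). F1 liver 10-cell libraries run from 1 to 19 genes and F1 pools from 1 to 10, with all counts.

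A test of levels and a test of detection were used. edgeR's quasi-likelihood test compared mean levels, but its filter on low counts kept only 2 of the 38 genes between nude liver and spheroid 10-cell libraries, 1 between F1 liver and spheroids, and 4 between the livers. The share of libraries with counts was therefore compared for every gene with a two-sided Fisher's exact test, adjusted by Benjamini-Hochberg over all genes with a count. By that test 12 of the 38 genes were found in more nude liver than spheroid 10-cell libraries, where 5.17% of all genes were and 6.8% of those without counts in the spheroid libraries, and none in fewer, where 5.45% were. Without adjustment, at p under 0.05, 15 were found in more and 0 in fewer, where 10.1% and 11.7% of all genes were. In F1 livers 6 of the 38 were found in more libraries than in spheroids, where 0.869% of all genes were and 4.34% of those without counts in the spheroid libraries, and none in fewer, where 2.66% were. Over the genes with counts in the 2 groups compared, the median difference in share was 15.2 percentage points for the listed genes and 0 for all genes in nude livers, and 11.1 against -3.23 in F1 livers. The 30 genes without counts in KP1 spheroids could not fall against spheroids by either test. For them the absence of falls was fixed in advance and is no result. With no filter edgeR's test called 26 of 33 listed genes higher and none lower in nude livers (27% and 15% of all genes) and 24 of 32 higher and none lower in F1 livers (16.8% and 9.85%). Between the livers it then called 9 of 37 higher and 8 lower in F1 (13.2% and 18.5% of all genes). Those calls included genes with counts in a single library, such as Cd14 in nude and S100a8 in F1 livers, and are not used below. In the other comparisons, run without the filter, edgeR called 9 of 18 genes in RPC spheroids, 28 of 35 in nude pools, 17 of 25 in F1 pools and 21 of 35 between the liver pools, where 31.5%, 39.3%, 28.3% and 29.5% of all genes were called.

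Among the class II genes Cd74 was the most widely found. All 48 KP1 spheroid libraries had 0 counts of it. In nude liver 10-cell libraries it was at 0 in the lowest, at 3.63 CPM in the median and at 227.3 CPM in the highest library, with counts in 20 of 33. In F1 liver 10-cell libraries the lowest and the median were 0, the highest was 449.1 CPM, and 14 of 31 had counts. Against the spheroid floor the mean was at least 1022-fold higher in nude livers and at least 2760-fold higher in F1 livers, or 758-fold and 2230-fold without the highest library of each. The share of libraries with counts rose in both (Fisher's exact test, adjusted p = 2.37e-05 for nude and 0.00296 for F1). Libraries with counts held a median of 12.5 CPM in nude and 124 CPM in F1 livers.

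The β chain gene H2-Ab1 (chr17:34263209-34269418 on GRCm38, plus strand) had counts in 13 of 33 nude liver 10-cell libraries, with a highest value of 44.6 CPM, and in 12 of 31 F1 libraries, with a highest value of 295.3 CPM. Both shares rose from 0 of 28 in spheroids (Fisher's exact test, adjusted p = 0.00283 and 0.011). H2-Aa had counts in 5 nude and 8 F1 10-cell libraries and H2-Eb1 in 6 and 8, with highest values of 11.3 and 19.4 CPM for H2-Aa and 76.9 and 60.5 CPM for H2-Eb1, and neither passed the test. The genes of peptide loading were rare. H2-DMa had counts in 5 nude and 3 F1 libraries, and also in 3 spheroid libraries, while H2-DMb1 was found in 3 F1 libraries at up to 0.899 CPM and in no nude 10-cell library. Ciita, the coactivator gene, had counts in 2 nude and 1 F1 10-cell library, with a highest value of 12 CPM. In the annotation 360 exonic bases of H2-DMa overlap Brd2 and 329 of Ciita overlap Dexi, each on the opposite strand. The libraries were not stranded, so reads of the overlapping genes cannot be told apart there.

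In 10-cell libraries the class II chain genes were found where Cd74 was. Every 10-cell library with counts of H2-Ab1, H2-Aa or H2-Eb1 also had counts of Cd74, which held for 13, 5 and 6 of them in nude livers and for 12, 8 and 8 in F1 livers. Of Cd74, H2-Aa, H2-Ab1 and H2-Eb1, nude liver 10-cell libraries held none in 13 cases, 1 in 6, 2 in 7, 3 in 4 and all 4 in 3. F1 liver libraries held none in 17, 1 in none, 2 in 4, 3 in 6 and all 4 in 4. So an F1 liver library had either none of the 4 genes or at least 2 of them. In pools, 17 of 35 nude and 10 of 24 F1 libraries held exactly 1, and there Cd74 did not accompany every class II gene. It had counts in 4 of the 6 nude and 5 of the 7 F1 pools with H2-Ab1, in 2 of 3 and 1 of 3 with H2-Aa, and in 2 of 2 and 1 of 1 with H2-Eb1. These are counts of libraries, and their departure from chance was not tested.

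Of the 8 genes listed for Kupffer and macrophage receptors, 2 were found in more nude liver than spheroid 10-cell libraries. Clec4f, a lectin that binds galactose-bearing glycans and is restricted to Kupffer cells in mice (chr6:83644542-83656187, minus strand), had 0 counts in all 48 spheroid libraries and counts in 11 of 33 nude liver 10-cell libraries, with a median of 0 and a highest value of 64.6 CPM (Fisher's exact test, adjusted p = 0.0097). The call was lost in 4 of 5 alternatives (adjusted p over the 5 from 0.0176 to 0.577, exact test). Cd5l, a secreted scavenger protein that keeps macrophages alive, had counts in 12 nude libraries, with a highest value of 153.9 CPM (adjusted p = 0.00545 by Fisher's exact test). The call was lost in 3 of 5 alternatives (adjusted p over the 5 from 0.0176 to 0.391, exact test). Its mean in nude livers was 8.1 CPM, and 3.55 CPM without that library. In F1 livers Cd5l had counts in 8 of 31 libraries, up to 77.5 CPM, and did not pass the test (adjusted p = 0.0893).

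Clec4f had no counts in any of the 31 F1 10-cell or 24 F1 pool libraries. The floor there is 0.0221 CPM over the 10-cell libraries. The remaining receptors were sparse. Vsig4, a receptor for complement fragments, had counts in 3 nude and 1 F1 10-cell library, Marco, a scavenger receptor, in 3 nude and no F1 libraries, and Cd163, the haemoglobin scavenger receptor, in 2 and 1. Timd4, a receptor for phosphatidylserine on dying cells, had counts in 2 nude pools, in no other 10-cell or pool library, and 1 count in the KP2 bulk library. Adgre1, which encodes the F4/80 antigen, had counts in 3 F1 and no nude 10-cell libraries. The mannose receptor gene Mrc1 had counts in 4 nude, 2 F1, 3 KP1 spheroid and 4 RPC 10-cell libraries, so it did not separate liver from culture.

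All 3 genes of complement C1q, whose products assemble into the recognition molecule of the classical pathway, lie next to each other on chromosome 4, between positions 136880129 and 136898803 of GRCm38. All 3 were found in more nude liver than spheroid 10-cell libraries. C1qb had 0 counts in every spheroid library. Nude liver 10-cell values of C1qb ran from 0 through a median of 0.66 to 47.9 CPM, with counts in 18 of 33, and its F1 values from 0 through a median of 0 to 86.5 CPM, with counts in 15 of 31. The mean was at least 268-fold and 501-fold above the spheroid floor, and both shares rose (Fisher's exact test, adjusted p = 0.00014 and 0.00154). C1qc had counts in 17 nude and 9 F1 libraries and C1qa in 11 and 8. Both passed the test in nude livers (Fisher's exact test, adjusted p = 0.000323 and 0.0097) and missed it in F1 livers (0.0558 and 0.0893). The nude call of C1qa was lost in 3 of 5 alternatives (adjusted p over the 5 from 0.0176 to 0.578, exact test). No C1q gene was found in 10 of 33 nude and 15 of 31 F1 libraries, and all 3 together in 9 and 5.

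Among the Fc receptors and their adaptors, Tyrobp, which encodes the signalling adaptor DAP12 (chr7:30413760-30417585, plus strand), was the one of those undetected in spheroids found in most F1 10-cell libraries. It had 0 counts in KP1 spheroids, counts in 10 of 33 nude 10-cell libraries with a highest value of 146.9 CPM, and counts in 15 of 31 F1 10-cell libraries with a highest value of 154.2 CPM. Both shares rose (Fisher's exact test, adjusted p = 0.0173 and 0.00154), but the nude call missed the threshold in each of the 5 alternatives run (adjusted p = 0.0547 to 0.577, exact test). The mean was 7.87 ± 26.2 CPM in nude livers, 3.53 without the highest library, and 23.6 ± 43.3 CPM in F1 livers. Fcer1g, the γ chain shared by activating Fc receptors, had counts in 3 nude and 9 F1 libraries, Fcgr3 in 6 and 6, and Fcgr1, the high-affinity IgG receptor, in 7 and 2, and none of these 3 passed the test. The adaptors were found together in 7 F1 libraries and in no nude 10-cell library. Fcgr2b, the inhibitory Fc receptor, is described after the other genes.

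Of the 8 monocyte and macrophage genes, 2 passed the test in each liver. Aif1, which encodes the actin-binding protein IBA1, had counts in 18 nude 10-cell libraries, up to 112.1 CPM, and in 10 F1 libraries, up to 111.3 CPM (Fisher's exact test against 0 of 28 spheroid libraries, adjusted p = 0.00014 and 0.0321). The F1 call of Aif1 was lost in 5 of 6 alternatives (adjusted p over the 6 from 0.0441 to 0.898, exact test). Lyz2, the lysozyme of macrophages and neutrophils, had counts in 13 and 11 libraries, with means of 15 ± 33.6 and 21.5 ± 46.6 CPM (adjusted p = 0.00283 and 0.0194 by Fisher's exact test). Cybb, the catalytic subunit of the phagocyte oxidase, had counts in 3 nude and 5 F1 libraries, Ccl6, a chemokine, in 3 and none, Ccr2, the receptor that draws monocytes out of the blood, in 5 and 2, and Cd14, the lipopolysaccharide co-receptor, in 1 and none. None of these 4 passed.

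Csf1r and Cd68 had counts in spheroids as well as in livers, and neither passed a test in the 10-cell libraries. Csf1r, the receptor for the growth factor that macrophages need, had counts in 22 of 28 spheroid 10-cell libraries at a mean of 14.7 ± 27.2 CPM, in 22 of 33 nude libraries at 15.4 ± 32.1 and in 22 of 31 F1 libraries at 20.8 ± 35.8. edgeR's quasi-likelihood test gave log2 fold changes of -0.21 ± 0.74 (SE) for nude and 0.71 ± 0.77 for F1 livers against spheroids, with Benjamini-Hochberg adjusted p of 0.859 and 0.602, and 12.6% of all genes were called in the F1 comparison. The ranges overlapped in full. Cd68, a lysosomal glycoprotein, had counts in 16 spheroid, 15 nude and 11 F1 10-cell libraries, and fell in F1 pools, as given with the pools. In the annotation 873 exonic bases of Csf1r overlap Hmgxb3 on the opposite strand, and the libraries were not stranded, so reads of the 2 genes cannot be told apart there.

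Of the genes shared by leukocytes, Laptm5, a lysosomal membrane protein of blood cells (chr4:130913125-130936141, plus strand), was found in 24 of 33 nude liver 10-cell libraries, more than any other gene of the 30 undetected in spheroids. Its values ran from 0 through a median of 1.22 to 118.9 CPM there, and from 0 through a median of 0 to 36.9 CPM in F1 livers, where 9 of 31 libraries had counts. The share rose in nude livers (Fisher's exact test, adjusted p = 3.16e-07) and missed the threshold in F1 livers (adjusted p = 0.0558). Ptprc, which encodes the CD45 phosphatase of all nucleated blood cells, had counts in 5 nude and 7 F1 libraries, Itgax, the CD11c integrin chain, in 3 and 2, and Spi1, the PU.1 transcription factor gene, in 1 and none. Itgam, the CD11b integrin chain, had counts in 27 spheroid, 31 nude and 31 F1 10-cell libraries, at means of 0.962, 3.45 and 2.67 CPM. An unlisted gene model on the same strand overlaps 3450 exonic bases of Itgam. S100a8 and S100a9, the neutrophil calprotectin pair, had counts in 1 library in all, F1 10-cell library 5, at 38.4 and 120.9 CPM.

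**Figure D3:**
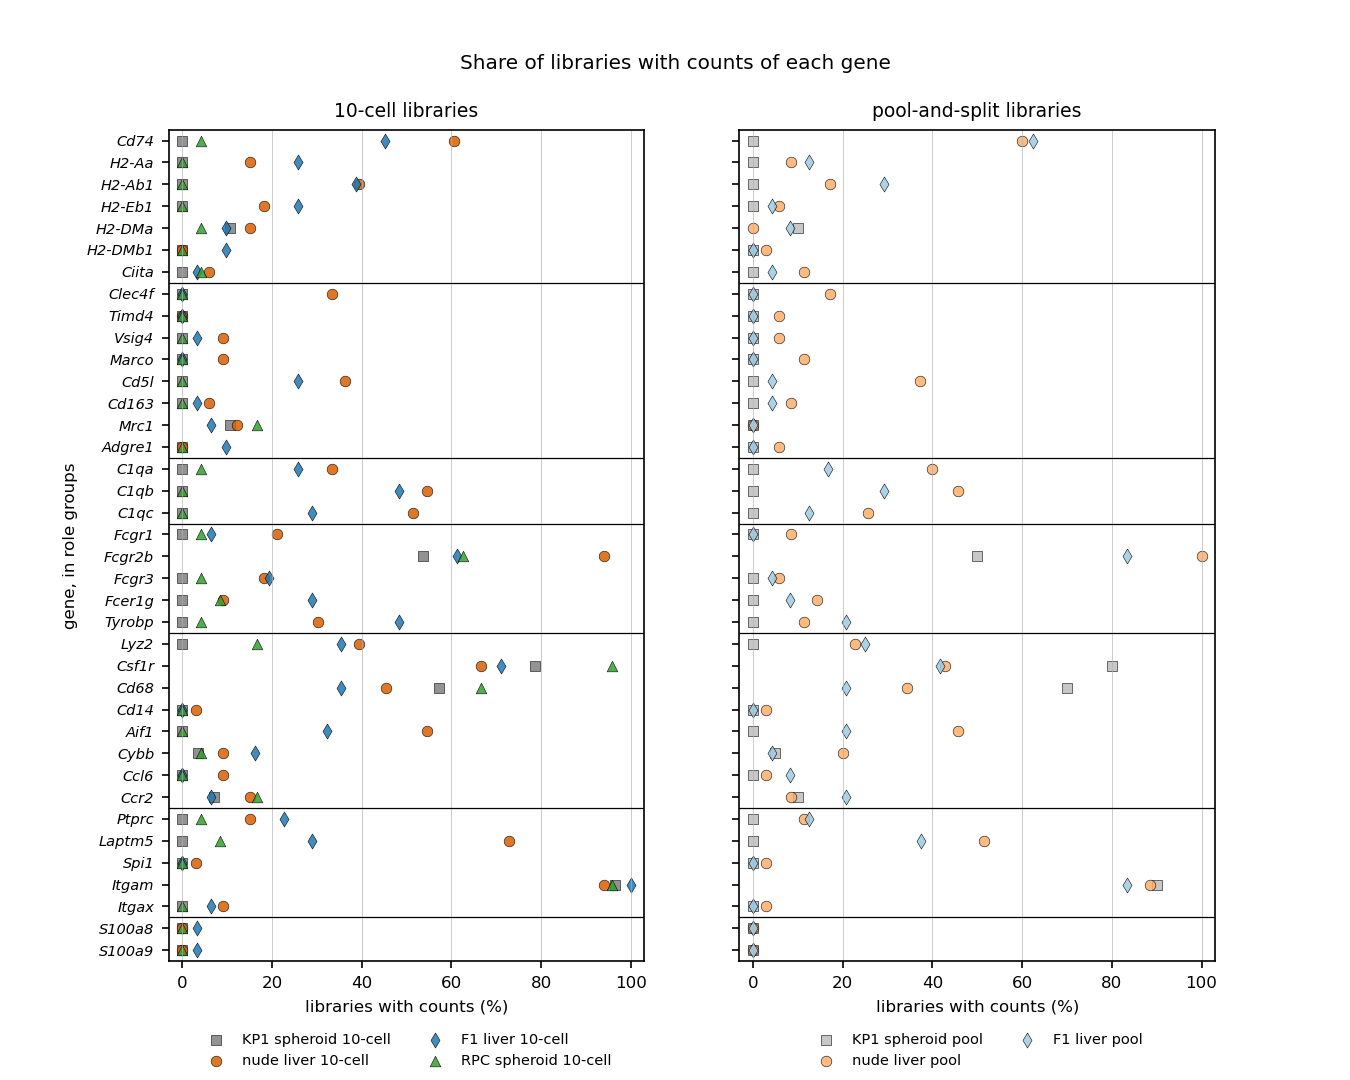
Percent of libraries with counts of each of the 38 genes (rows, in role groups), in 10-cell libraries (left) and pools (right), with 1 marker for each group. In the rows from Cd74 to Itgax, nude and F1 liver markers lie to the right of the KP1 spheroid markers for most genes, while Fcgr2b, Csf1r, Cd68 and Itgam are high in spheroids too.

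The nude and F1 livers were compared directly. Of the 37 genes with counts in either, 13 were found in a larger share of F1 and 24 in a larger share of nude 10-cell libraries, with a median difference of -3.03 percentage points, the same as over all genes. By Fisher's exact test 2 genes fell in F1 livers, where 2.04% of all genes did, and none rose, where 0.4% did. Without adjustment, at p under 0.05, 3 fell and 0 rose, where 9.89% and 2.64% of all genes did. Clec4f was found in 0 of 31 F1 against 11 of 33 nude libraries, a difference of -33.3 percentage points (adjusted p = 0.0236 by Fisher's exact test). Laptm5 was found in 9 against 24, a difference of -43.7 percentage points (Fisher's exact test, adjusted p = 0.0421). Of 19 further macrophage and Kupffer genes with counts, 2 fell and none rose by Fisher's exact test: Fcna, a ficolin of Kupffer cells, in 0 of 31 F1 against 12 of 33 nude libraries, and Cx3cr1, a chemokine receptor, in 6 against 21 (adjusted p = 0.0139 and 0.0244, exact test). Of the 3 of that list tested by edgeR, Grn, the progranulin gene, rose by 2.37 ± 0.60 (SE) from nude to F1 livers (adjusted p = 0.00248). In pools Grn had 0.33 ± 0.85 (SE; edgeR, adjusted p = 0.842).

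The calls of Clec4f and Laptm5 sat near the threshold. In the 26 F1 libraries with much of the pseudogene Rpl19-ps11, a level that divides the F1 libraries without a label to explain it, the differences were -33.3 points for Clec4f and -42 for Laptm5, with adjusted p of 0.0549 and 0.0636 (Fisher's exact test). With the 16 nude libraries above the group's median gene total they were -31.2 and -33.5 points, with adjusted p of 0.135 and 0.376 by the same exact test. Laptm5 had counts in 14 of the 17 less deep and 10 of the 16 deeper nude libraries. Of the 38, no class II or C1q gene passed either test between the livers, and edgeR's filter kept only Cd74 and C1qb of them. Cd74 gave a log2 fold change of 1.98 ± 0.91 (SE) for F1 over nude, with an adjusted p of 0.118 by edgeR's quasi-likelihood test, and C1qb 1.40 ± 0.80 with 0.22. Outside the 38, the class II pathway gene H2-DMb2 fell by 2.23 ± 0.51 (SE) and Ifi30 rose by 2.89 ± 0.76 from nude to F1 livers (edgeR's quasi-likelihood test, adjusted p = 0.000749 and 0.0038), the only 2 called of 7 tested, where 7.98% of all genes fell and 11.2% rose. In pools H2-DMb2 had -0.28 ± 0.43 (SE; edgeR, adjusted p = 0.72). Rfxank fell there by 1.90 ± 0.64 (SE; edgeR, adjusted p = 0.0418), the only 1 called of 5 tested, where 3.79% of all genes fell. The split by depth is not reported for H2-DMb2, Ifi30 or Grn.

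**Figure D4:**
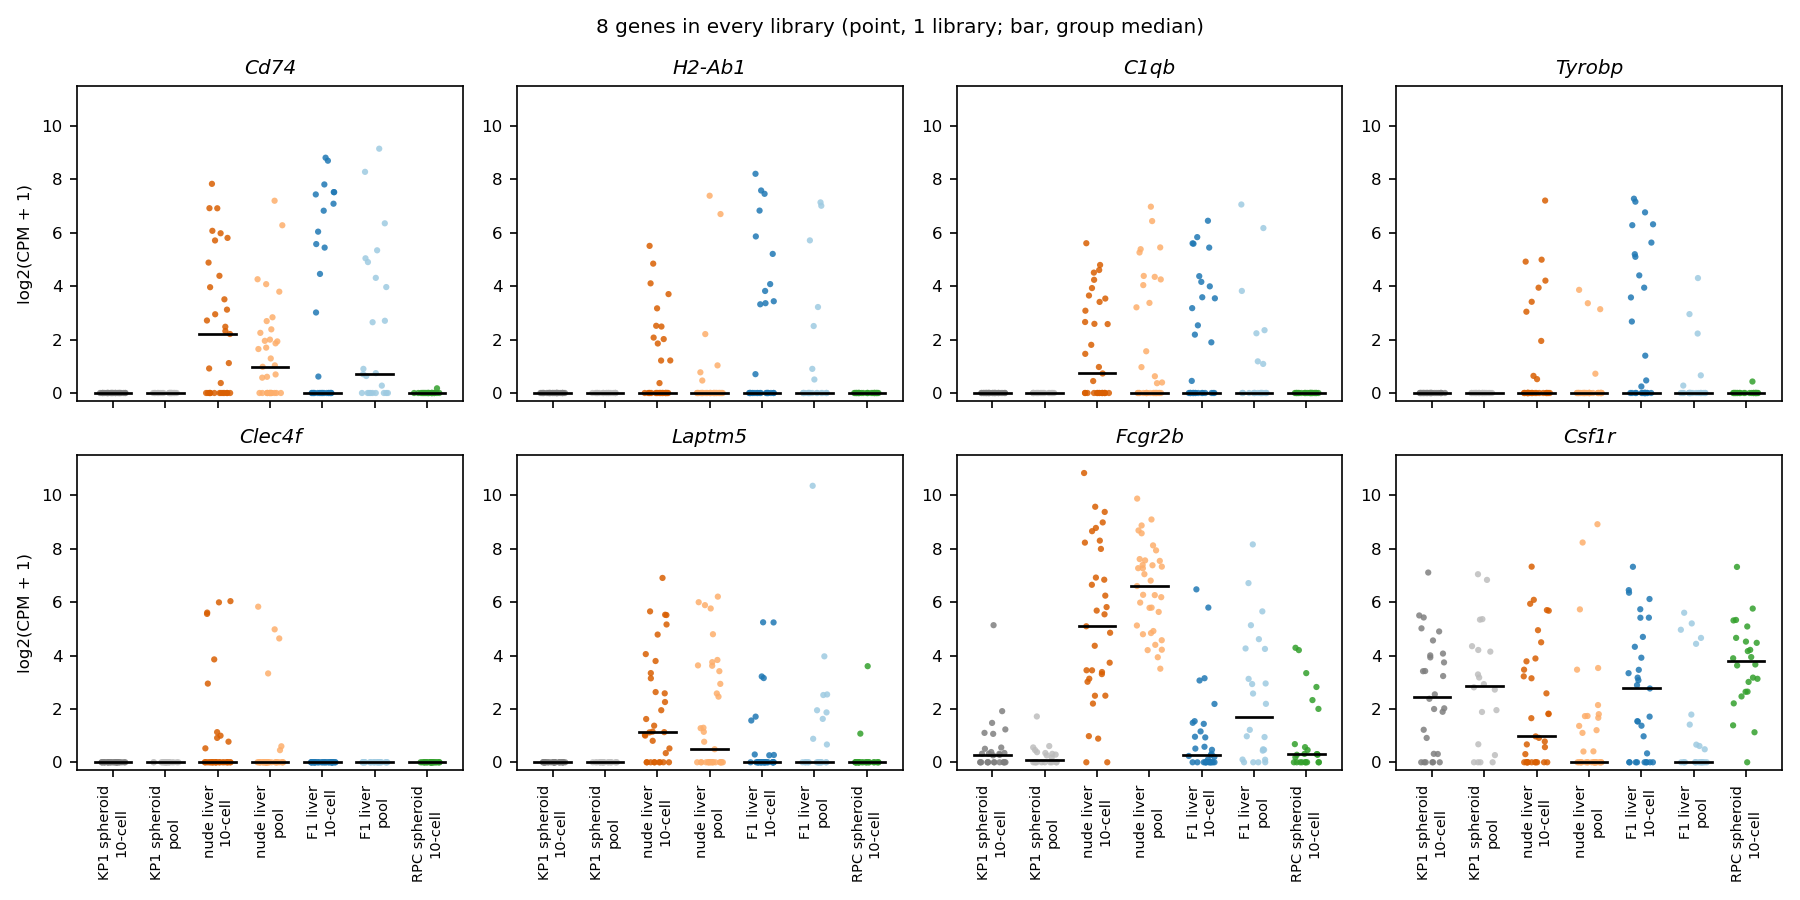
Level of 8 of the genes as log2(CPM + 1) in every 10-cell and pool library (point) with the group median (bar). Cd74, H2-Ab1, C1qb, Tyrobp, Clec4f and Laptm5 are at 0 in every KP1 spheroid library, Clec4f also in every F1 library, Fcgr2b is high in nude livers, and Csf1r overlaps between all groups.

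In the pools 7 genes were found in more nude liver than spheroid libraries by Fisher's exact test, where 3.35% of all genes were and 17.1% were in fewer: Cd74, C1qa, C1qb, Cd5l, Aif1, Laptm5 and Fcgr2b. All 7 were also among the 12 of the 10-cell libraries. Pools are portions of pooled material, so p-values over them measure the spread between portions and not between captures or animals. Cd74 had counts in 21 of 35 nude pools, with a median of 0.975 and a highest value of 146.3 CPM (adjusted p = 0.000152, Fisher's exact test). Clec4f had counts in 6, up to 55.8 CPM. In F1 pools Cd74 and Laptm5 were found in more libraries than in spheroids (15 and 9 of 24, adjusted p = 0.000586 and 0.017 by Fisher's exact test), where 0.609% of all genes were. The call of Laptm5 was lost in 5 of 6 alternatives (adjusted p over the 6 from 0.0252 to 0.729, exact test). Cd68 fell, to 5 of 24 from 14 of 20 (adjusted p = 0.017, exact test), as did 16.8% of all genes, and this call too was lost in 5 of 6 alternatives (0.039 to 0.54). One F1 pool held 1604 CPM of Lyz2 and another 1311 CPM of Laptm5. Without them the F1 pool means were 6.93 in place of 73.5 CPM and 1.45 in place of 56 CPM.

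Between the pools of the livers no gene of the 38 differed by Fisher's exact test on all counts, where 0.911% of all genes were in fewer and 0.0951% in more F1 pools. Without adjustment, at p under 0.05, 2 fell and 0 rose, where 7.99% and 1.64% of all genes did, and edgeR called 1, Fcgr2b, of the 1 it tested. With libraries thinned to 1 depth, Cd5l (1 of 24 F1 against 13 of 35 nude pools with all counts) and Fcgr2b fell in F1 pools, with adjusted p of 0.0324 and 0.00367 by the exact test, as did 1.53% of all genes.

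Fcgr2b was the only one of the 38 genes called by edgeR's quasi-likelihood test with its filter on low counts and all libraries of the groups compared. The gene lies on the minus strand at chr1:170958617-170976547 of GRCm38, and B cells, macrophages and sinusoidal endothelial cells carry the receptor. In KP1 spheroid 10-cell libraries it ran from 0 through a median of 0.204 to 34.2 CPM, and in nude liver 10-cell libraries from 0 through 33.2 to 1827 CPM, with counts in 31 of 33. In F1 liver libraries it ran from 0 through 0.205 to 88.1 CPM. Nude pools were at 10.4 CPM in the lowest, 96.2 in the median and 940 in the highest, spheroid pools at 0, 0.0665 and 2.29, and F1 pools at 0, 2.44 and 285.4. The nude and spheroid pools did not overlap, and the F1 pools overlapped both.

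The mean level of Fcgr2b rose in nude livers by 7.03 ± 0.94 on the log2 scale (SE) against spheroids in 10-cell libraries and by 9.47 ± 0.79 in pools (edgeR's quasi-likelihood test, Benjamini-Hochberg adjusted p = 8.87e-09 and 7.04e-15). Of all genes tested, 17.7% rose in the first comparison and 16.5% in the second. It fell by 5.17 ± 0.88 from nude to F1 livers in 10-cell libraries and by 2.15 ± 0.74 in pools (edgeR, adjusted p = 7.59e-06 and 0.0436), where 7.98% and 3.79% of all genes fell. Leaving out each 10-cell liver library in turn gave 6.61 to 7.17 for the rise and -5.95 to -4.71 for the fall. Without its highest library the nude 10-cell mean was 136.2 in place of 187.4 CPM.

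The level of Fcgr2b moved with the depth of the nude liver libraries, in 10-cell libraries more than in pools. Spearman's rho with gene total, spike-in percent and genes detected after thinning was -0.746, 0.574 and -0.523 in nude 10-cell libraries. In nude pools it was -0.274, 0.594 and -0.627. These relations were not tested. In the 16 nude 10-cell libraries above the median gene total Fcgr2b ran from 0 through 7.43 to 99.4 CPM, and in the other 17 from 8.87 through 253.8 to 1827 CPM. The deeper libraries held fewer counts of it as well, 25.9 against 295.8 in the median. With only the deeper nude libraries the fall to F1 livers was -1.63 in 10-cell libraries and -1.43 in pools (edgeR, adjusted p = 0.388 and 0.418), and against spheroid 10-cell libraries the gene no longer passed the filter on low counts. The rise over spheroid pools was 8.95 with the deeper pools (edgeR, adjusted p = 2.6e-11). By comparison, C1qb had counts in 11 of the 16 deeper and 7 of the 17 less deep nude 10-cell libraries, Cd74 in 11 and 9, and Laptm5 in 10 and 14.

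Fcgr2b also stood apart in how its reads were counted. Of its 145 values above 0, 97.9% had decimals (further than 1e-06 from a whole number), and in a gene's estimated count decimals arise where RSEM divides reads between genes. Of the other 37 genes, 28 had no value with decimals and none reached 90%. Among all 14690 genes with at least 20 values above 0, 17.8% did. Its exons overlap by 155 bases those of Gm38204, an antisense gene model that is absent from the deposited table.

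In nude liver 10-cell libraries Fcgr2b was related to 46 other genes of the lists on the log2(CPM + 1) scale. There 11 of the 46 passed the threshold with a positive and 8 with a negative Pearson's r (permutation test, Benjamini-Hochberg over the 46), and 3 of the lists held calls in both directions. It was highest where H2-DMb2, a class II loading gene outside the 38, was high: Pearson's r was 0.823 and Spearman's rho 0.818 over 33 libraries, each with an adjusted p of 9.2e-05 (permutation test), and r was 0.795 without the 2 libraries farthest from the median. Ifi30, of the same pathway, gave r of -0.687 and rho of -0.719 (permutation test, adjusted p = 0.000131 and 9.2e-05), with r of -0.678 without 2 libraries. With Xcr1, a dendritic cell receptor, r was 0.783 and rho 0.796 at the same adjusted p (permutation test), and 0.762 without 2 libraries. Batf3, a dendritic cell transcription factor gene, gave -0.432 and -0.466 (permutation test, adjusted p = 0.0387 and 0.0218), with r of -0.376 without 2 libraries. The B cell gene Ms4a1 gave r of 0.706 and rho of 0.675 (permutation test, adjusted p = 9.2e-05 and 0.000153), with r of 0.69 without 2 libraries, and the B cell gene Cd79a r of -0.252 and rho of -0.285 (permutation test, adjusted p = 0.244 and 0.198), with -0.206 without 2 libraries. Pecam1, an endothelial gene, gave 0.701 and 0.621 (permutation test, adjusted p = 9.2e-05 and 0.00092), with r of 0.62 without 2 libraries, while the endothelial genes Kdr and Egfl7 gave r of -0.123 and -0.203 and rho of -0.11 and -0.212 (permutation test, adjusted p of at least 0.333), with r of -0.0468 and -0.229 without 2 libraries. In nude pools, F1 liver 10-cell libraries and F1 pools none of the 12 relations to H2-DMb2, Xcr1, Ms4a1 and Pecam1 passed. The strongest r, with H2-DMb2 in nude pools, was 0.419 with a rho of 0.384 (permutation test, adjusted p = 0.148 and 0.105), and 0.253 without 2 libraries. In the counting, 97.8% of the values of H2-DMb2 and 97.5% of those of Xcr1 had decimals, and both genes had counts in spheroids too. Of the 10 related genes with decimals in at least 90% of values 9 had a positive rho, and of the 29 with decimals in under 10% of values 4 did. C1qb was related to it with r of -0.413 and rho of -0.354 (permutation test, adjusted p = 0.0436 and 0.0945), and r was -0.327 without 2 libraries. Clec4f gave -0.15 and -0.0813 (adjusted p = 0.482 and 0.7, permutation test). The libraries share their depth and their capture, and the part of the counting, the depth and the cells in the level of Fcgr2b was not tested.

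**Figure D5:**
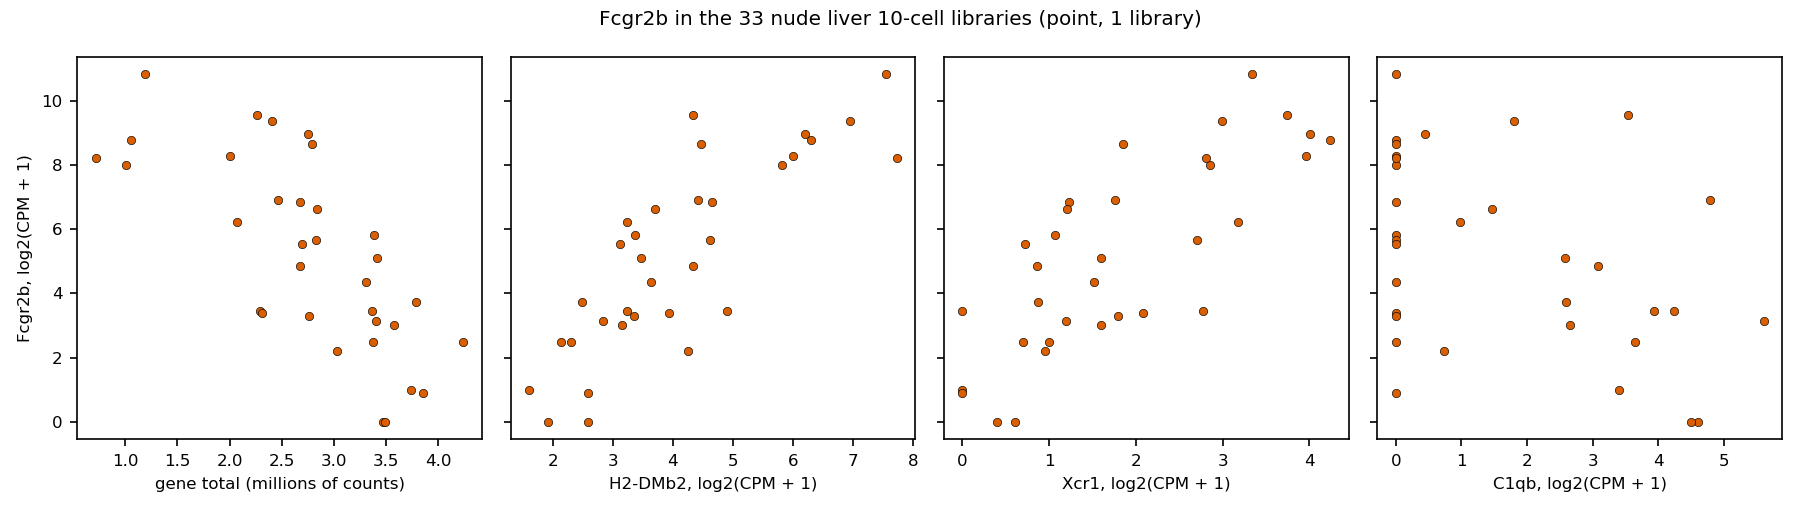
Fcgr2b in the 33 nude liver 10-cell libraries (points), as log2(CPM + 1), against the gene total and against H2-DMb2, Xcr1 and C1qb on the same log2 scale. Fcgr2b is high in the libraries with low gene totals and with high H2-DMb2 and Xcr1, and C1qb is at 0 in 15 of the libraries.

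RPC spheroids held few of these genes, with 4.25 ± 1.15 of the 38 per library (n = 24, range 2 to 7), and 18 of the 38 in all, with 10 of the 30 that were undetected in KP1 spheroids. Lyz2 was the most frequent of those 10, in 4 of 24 libraries at up to 92.1 CPM. Of the C1q and class II genes, C1qa, Cd74, H2-DMa and Ciita had counts in 1 library each and Clec4f in none. By Fisher's exact test 0 of the 38 passed against KP1 spheroids (1 higher and 0 lower without adjustment, at p under 0.05, where 14.9% and 3.29% of all genes were), where 6.58% of all genes were in more and 1.63% in fewer RPC libraries. Csf1r, the only one past the filter, gave a log2 fold change of 0.48 ± 0.66 (SE) with an adjusted p of 0.659 in edgeR's test, where 21.9% of all genes were called.

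Bulk spheroid RNA was made by another protocol. In the 4 bulk libraries 14 of the 38 genes had no counts, and 2 reached 1 CPM: Ciita, at up to 1.96 CPM, and Cd68, at 1.16 to 2.24 CPM. Csf1r was at 0 to 0.142 CPM and Itgam at 0 in all 4, although both had counts in most KP1 spheroid 10-cell libraries. Of the 30 genes undetected in KP1 spheroid 10-cell and pool libraries, Ciita had 15 counts (0.869 CPM) and Fcgr1 5 counts (0.290 CPM) in the KP1 bulk library. Exons of Ciita overlap those of Dexi by 329 bases on the opposite strand, and the part of Dexi reads in its counts was not tested. These are single libraries, so the difference has no replicate check.

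The other genes of the class II pathway had calls in both directions. Of the 16 with counts, Rfxank and H2-DMb2 were found in more nude liver than spheroid 10-cell libraries by Fisher's exact test and none in fewer (5.17% and 5.45% of all genes). In F1 livers 1 of 14, H2-DMb2, was found in more (0.869% of all genes). In pools the detection calls were in the other direction, with 0 higher and 4 of 15 lower in nude livers (Rfx5, Lgmn, Ifi30 and Rfxap) and 0 higher and 3 of 12 lower in F1 livers, where 17.1% and 16.8% of all genes were lower. By edgeR the pool calls were upward, with 3 of 9 in nude (Cd40, Rfxank and H2-DMb2) and 2 of 8 in F1 livers (Nfyc and H2-DMb2) and 0 lower, where 16.5% and 8.94% of all genes rose. Rfxank, a subunit of the RFX complex, had counts in 17 of 28 spheroid and 33 of 33 nude libraries, and it also rose in RPC spheroids, by 2.03 ± 0.73 on the log2 scale (SE; edgeR, adjusted p = 0.0363). Ctss, the protease that trims the invariant chain, had counts in 0 spheroid, 4 nude and 8 F1 10-cell libraries and did not pass. By edgeR 3 of 8 tested genes rose (Nfyc, Rfxank and H2-DMb2) and Ifi30, a thiol reductase of the endosome, fell in nude livers, where 17.7% of all genes rose and 16.3% fell. In F1 livers 2 of 7 rose (Nfyc and H2-DMb2) and none fell, where 7.73% and 4.91% of all genes did. Of 19 further macrophage and Kupffer genes with counts, 7 were found in more nude liver libraries by Fisher's exact test (Axl, Apoe, Mertk, Ms4a7, Fcna, Mpeg1 and Cx3cr1), against 5.17% of all genes. By edgeR 2 of 3 tested rose (Apoe and Spic) and Grn fell by 1.69 ± 0.48 on the log2 scale (SE; adjusted p = 0.00391) in nude livers. In nude pools Grn had -0.066 ± 0.723 (SE; edgeR, adjusted p = 0.96). Spic also rose in RPC over KP1 spheroids, by 1.78 ± 0.55 (SE; edgeR, adjusted p = 0.0133), where 21.9% of all genes were called. In F1 livers 1 of 2 tested rose, Apoe, by 4.32 ± 0.84 (SE; edgeR, adjusted p = 0.000168), and Grn had 0.64 ± 0.55 (adjusted p = 0.483). By Fisher's exact test 1 of 16 was found in more F1 liver libraries, Mpeg1, the perforin-like protein of macrophages, with counts in 15 of 31 F1 and 11 of 33 nude libraries, against 0.869% of all genes. Among the genes called by edgeR here, decimals were in 100% of the values of Rfxank and Spic. They were in 97.8% for H2-DMb2, 97.58% for Cd40 and 90.45% for Grn, but in 3.59% for Nfyc and 0% for Apoe and Ifi30.

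Genes of other liver cells were present in the same captures. The counts below are read against the 5.17% of all genes in nude and 0.869% in F1 livers that were found in more 10-cell libraries than in spheroids by Fisher's exact test. Hepatocyte genes were found in more libraries for 10 of 10 list members in nude and 8 of 10 in F1 livers, and their summed level was 33.4 to 4449 CPM in nude (median 902.8) and 0 to 2128 CPM in F1 10-cell libraries (median 198.7), against 0 to 83.6 in spheroids. Alb had counts in 32 nude, 24 F1 and no spheroid 10-cell library. Red cell genes had a median sum of 551.2 CPM in nude and 1622 CPM in F1 livers. Of the stellate and fibroblast list 5 of 7 in nude and 2 of 7 in F1 livers were found in more libraries, and of the endothelial list 3 of 9 and 1 of 6. Sinusoidal endothelial markers were rare, with Clec4g in 2 nude and Lyve1 in 3 nude 10-cell libraries. T and NK cell genes stayed at a median sum of 0.33 CPM in nude and 0 in F1 livers, and 0 of 8 passed Fisher's exact test in either (1 and 0 higher without adjustment, at p under 0.05, where 10.1% and 3.2% of all genes were). Of the 6 other neutrophil genes with counts, Cxcr2 and Lcn2 were found in more nude liver 10-cell libraries by Fisher's exact test, and of the 4 with counts none passed in F1 livers (0 without adjustment, at p under 0.05). Cxcr2, a chemokine receptor, rose by 4.47 ± 0.71 on the log2 scale (SE) in nude livers (edgeR, adjusted p = 4.71e-07) and had decimals in 97.7% of its values. It also rose in cultured RPC over KP1 spheroids, by 2.50 ± 0.62 (SE; edgeR, adjusted p = 0.00177), where 21.9% of all genes were called. By Fisher's exact test Pecam1 and Ms4a1 were found in more and Cd79a in fewer RPC than KP1 spheroid libraries, where 6.58% and 1.63% of all genes were. Camp and Retnlg had no counts in any 10-cell or pool library. Of the dendritic cell list 2 of 6 in nude (Siglech and Xcr1) and 0 of 8 in F1 livers were found in more libraries. Of the B cell list 1 of 4 in nude (Ms4a1) and 0 of 2 in F1 livers were. Siglech was also found in fewer F1 than nude liver 10-cell libraries, where 2.04% of all genes were. The part of these cells in the levels of the 38 genes was not tested.

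KP1 spheroid libraries fell into 9 with spike-in transcripts and 19 without, and all 30 undetected genes were undetected in both. Against the 9 alone, 2 of the 12 nude liver calls by Fisher's exact test remained, Fcgr2b and Laptm5, and none of the 6 F1 calls. Against the 19 alone, 8 remained in nude livers and 3 in F1 livers. The called genes other than Fcgr2b had no counts in either set. Their differences in share were thus the same against each set, but rested on fewer spheroid libraries. Of the 12 nude calls only that of Laptm5 held in all 5 alternatives, and none of the 6 F1 calls held in all 6. Of the 26 F1 libraries with much Rpl19-ps11, 11 had counts of Cd74 and 12 of C1qb, and of the 5 with little 3 and 3.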

How the data were processed

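Libraries of 10 laser-captured cells, pools split to the same size and 4 bulk RNA samples were analysed from the deposited table of expected counts for 31581 genes and 92 spike-in transcripts in 199 libraries. The expected counts were made by the authors with RSEM and Bowtie2 on GRCm38, per the submitters' processing notes, which also list GRCh38.p12 and give no versions. Of the table's values, 10.7% had decimals, and values were rounded for the count models. Libraries were amplified by poly(A) PCR and tagmented, without molecular identifiers, so amplification noise is part of every level. No pair of libraries agreed within sampling noise (lowest chi-square per degree of freedom 29.1).

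CPM were computed here over the genes without spike-ins, with a pseudocount of 1 on log scales only. A gene without counts was set to a floor of 3 counts over its group. Each of 7 comparisons was fitted over all genes with edgeR 4.0.16 (TMM, filterByExpr, quasi-likelihood test, only the 2 groups compared, Benjamini-Hochberg threshold 0.05) in R 4.3.3. DESeq2 1.42.0, limma 3.58.1, other scaling, no filter, batches, a replicate block, thinning to 718149 counts, a level of at least 5 CPM and leaving out libraries were alternatives. Fisher's exact test of detection (scipy 1.17.1), the split by depth of the nude libraries and the relations of Fcgr2b to other genes were chosen after seeing the data. The tests were tried on simulated data. Genes named in full were those called in any comparison and the most widely detected of each role, and other genes of a pathway or cell type are given as counts per list.

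The 38 genes and the lists were chosen with earlier results of these data known. RefSeq promoters (GRCm38.p6) were matched by symbol. The labels do not say which captures share an animal, so p-values measure the spread between libraries, part of which may be technical, and are too small if libraries of 1 animal resemble each other.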

Additional observations from a re-analysis of the deposited data

Results flagged for a closer look

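Nude and F1 liver libraries differed in 3 genes when tested against each other, and host, batch and depth were not separated. Fcgr2b was lower in F1 than in nude livers by -5.17 on the log2 scale in 10-cell libraries and by -2.15 in pools (edgeR's quasi-likelihood test, adjusted p = 7.59e-06 and 0.0436). Clec4f differed by -33.3 percentage points of 10-cell libraries with counts and Laptm5 by -43.7 (Fisher's exact test, adjusted p = 0.0236 and 0.0421). With only the deeper nude libraries Fcgr2b gave -1.63 in 10-cell libraries and -1.43 in pools (edgeR, adjusted p = 0.388 and 0.418), and Clec4f and Laptm5 gave differences of -31.2 and -33.5 points with adjusted p of 0.135 and 0.376 (exact test). With the F1 libraries high in Rpl19-ps11 they gave -33.3 and -42 points with adjusted p of 0.0549 and 0.0636 (exact test), and Fcgr2b had -1.88 in pools (edgeR, adjusted p = 0.108). These subsets hold fewer libraries. In both of them Clec4f and Laptm5 missed the threshold, with Clec4f at -31.2 and -33.3 points. With the deeper nude libraries the differences of Laptm5 and of Fcgr2b in 10-cell libraries were smaller than with all libraries. Fcgr2b carried fractional counts in 97.9% of its values and was highest in the nude libraries with low gene totals, and the part of either in its difference was not tested.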

How the results depend on the processing

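Without the filter on low counts edgeR called 26, 24, 17, 9, 28, 17 and 21 of the 38 genes (nude and F1 against spheroid, F1 against nude and RPC against spheroid in 10-cell libraries, then nude and F1 against spheroid and F1 against nude in pools), in place of 1, 0, 1, 0, 1, 0 and 1. Against the spheroid libraries with spike-ins it called 7 (nude), 5 (F1) and 6 (nude pools), and against those without 2, 1 and 2. With the deeper nude libraries it called 0 in the nude against spheroid and both F1 against nude comparisons. DESeq2 and limma-voom each called 2 in nude pools, the F1 pools with little Rpl19-ps11 gave 2 against spheroids, and RLE scaling gave 0 between the liver pools, where Fcgr2b had -2.03 (adjusted p = 0.0528). The replicate block left the counts at 1, 0, 1, 0, 1, 0 and 1; same-numbered libraries did not deviate together (median correlations of -0.00539 to 0.00534), so the numbers do not pair them. Leaving out each liver 10-cell library gave 1 to 1, 0 to 0 and 1 to 1. By Fisher's exact test, a level of at least 5 CPM gave 7 genes (nude), 1 (F1 against nude), 4 (nude pools) and 1 (F1 against nude pools). Spheroids with spike-ins left 2 (nude), 0 (F1), 0 (nude pools) and 0 (F1 pools), and those without left 3 (F1). F1 libraries with little Rpl19-ps11 left 0 (F1), 0 (F1 against nude) and 0 (F1 pools), those with much left 0 (F1 against nude), the deeper nude libraries left 0 (F1 against nude), and thinning gave 2 between the liver pools. Genes per library were 2.11, 2.1 and 2.79 after thinning (spheroids, spheroid pools, RPC) and 0.964, 1, 4.79, 3.8, 2.21 and 1.33 at 5 CPM or more (spheroids, their pools, nude, nude pools, F1 pools, RPC). Of the other values of named genes 111 kept their side of the threshold, 79 fell short of it and 0 changed direction. Nude libraries had the lowest gene totals, and the part of depth in detection was tested only by thinning and the depth split.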
